A study of Homo sapiens with 4 samples.

Results

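The genes described here are 38 genes of the NF-kB pathway: the subunits of the transcription factor, the proteins and kinases that control it, and genes that it is known to switch on. They were taken from a list of symbols, and the brightest probe that was detected on 2 or more of the 4 arrays stood for each, where detected means a detection p under 0.05. The detection p compares a probe with the negative control beads of its array. Of the 38 genes, 36 had a probe named in the annotation and 30 were measured by this rule, out of 11311 genes measured in all. The study profiled RNA of MDA-MB-468, an established human breast cancer line of basal type, on Illumina bead arrays. There were 2 arrays labelled mH2A1.2 knockout (KO) and 2 labelled wild type (WT). No treatment or time point is given. The design text calls the KO cells depleted of mH2A1.2, and the sources used here do not say how, or whether the cells are 1 clone. They also do not say that replicates were grown separately, so the spread behind every p-value here is that of these arrays and may be technical. mH2A1.2 is the macroH2A1.2 splice form of a histone H2A variant that is found in silenced chromatin.

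NF-kB proteins bind DNA as dimers of the subunits p50, p52, RelA, RelB and c-Rel. In resting cells IkB proteins hold the dimers in the cytoplasm, and signals from receptors of tumour necrosis factor, interleukin 1 or bacterial products lead the IkB kinases to mark IkB for destruction. The freed dimers switch on chemokines, adhesion molecules and survival genes, together with several of their own inhibitors, and many basal breast cancer lines keep the pathway partly active without a stimulus.

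Between 18753 and 19817 of 47230 probes were detected per array, and the number of arrays limits the precision. Over the 11311 genes, which are not independent replicates, log2 signals correlated at r = 0.968 between the KO arrays and at r = 0.992 between the WT arrays, and 5.64% of genes differed more than 2-fold between the KO arrays, against 0.371% between the WT arrays. MACROH2A1, the gene targeted, gave log2 signals of 12.32 and 12.12 in KO against 13.04 and 12.96 in WT at its brightest probe (limma adjusted p = 0.131). Its other detected probes went both ways, at -1.03 and 0.78 KO minus WT, so the probes check the labels only in part. Of the markers listed for this line and basal epithelium, EGFR, EPCAM, KRT7, KRT8, KRT18, KRT19 and LAMB3 were detected on all 4 arrays. KRT5, KRT14 and CDH1 were detected on none, so the markers check the named line only in part. EGFR had signals of 559.4 and 880.6 in KO against 539.9 and 550.4 in WT. The 7 measured of 12 such markers had summed signals of 9345 to 9902 in KO and 6399 to 7707 in WT, with no overlap. KRT19 made up most of that gap, with signals of 2951.9 and 3106.4 in KO against 604.6 and 1100.2 in WT. It was 4.68-fold higher in KO (limma adjusted p = 0.126). Of the 7, 5 were higher in KO and 2 were lower, KRT18 at -0.11 and LAMB3 at -0.14 KO minus WT (log2). Of 11 leukocyte markers 6 were measured, with summed signals of 2693 to 4017 in KO and 2592 to 3736 in WT. Of the 6 measured, 5 were higher in KO and 1, ITGB2, was lower. CD14 was 2.415-fold higher in KO (limma adjusted p = 0.172). ITGB2 was 1.646-fold lower, with no overlap (limma adjusted p = 0.285). PTPRC, CD3E, LYZ and TYROBP were not detected on any array. Of 8 fibroblast markers 3 were measured, with sums of 589 to 627 in KO and 441 to 489 in WT, with no overlap. Of these 3, PDGFRB was 2.118-fold higher in KO (limma adjusted p = 0.172), and DCN differed by -0.0004 KO minus WT (log2). COL1A1 was detected on the KO arrays alone. COL3A1, LUM, THY1 and FAP were not detected on any array. None of 5 endothelial markers was measured. The part of these marker differences in the results below was not tested. All values below are log2 normalized signals, differences are KO minus WT on that scale, ± is the moderated standard error of limma's linear model, and n = 2 arrays per group throughout.

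The differences of the NF-kB members went both ways. Of the 30 measured genes 15 were higher and 15 lower, with a median difference of -0.005, which is also the median of all genes tested. No member passed at a limma adjusted p under 0.05 over all genes, nor did any other gene (0% of 11311), and the smallest adjusted p of a member was 0.132. At an unadjusted p under 0.05 there were 6 members, or 20% of them, against 20.1% of all genes. They were 1 higher gene, BCL3, against 9.6% of all genes higher, and 5 lower genes, NFKB1, NFKBIB, NFKBIE, CHUK and TNFAIP3, against 10.5% of all genes lower. KO and WT values did not overlap for 5 members that were higher, or 16.7%, against 25.9% of all genes. They did not overlap for 8 that were lower, or 26.7%, against 28.2%. The share of members at an unadjusted p under 0.05 is close to that of all genes, and both shares without overlap are lower. At these array numbers none of these shares is a result about the members. With arrays scaled to equal medians, where the median of all genes was 0.12, the median of the members was 0.24. At an unadjusted p under 0.05 there were then 2 members higher and 1 lower. In either direction that was 10% of members against 13.2% of all genes, and 86% of those genes were higher. With 1 array left out, genes passed over all genes in the fits without a KO array alone: the smallest limma adjusted p of any gene was 0.793 without WT replicate 1 and 0.712 without WT replicate 2, so no gene given below as passing without a KO array passed without a WT array.

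**Figure D1:**
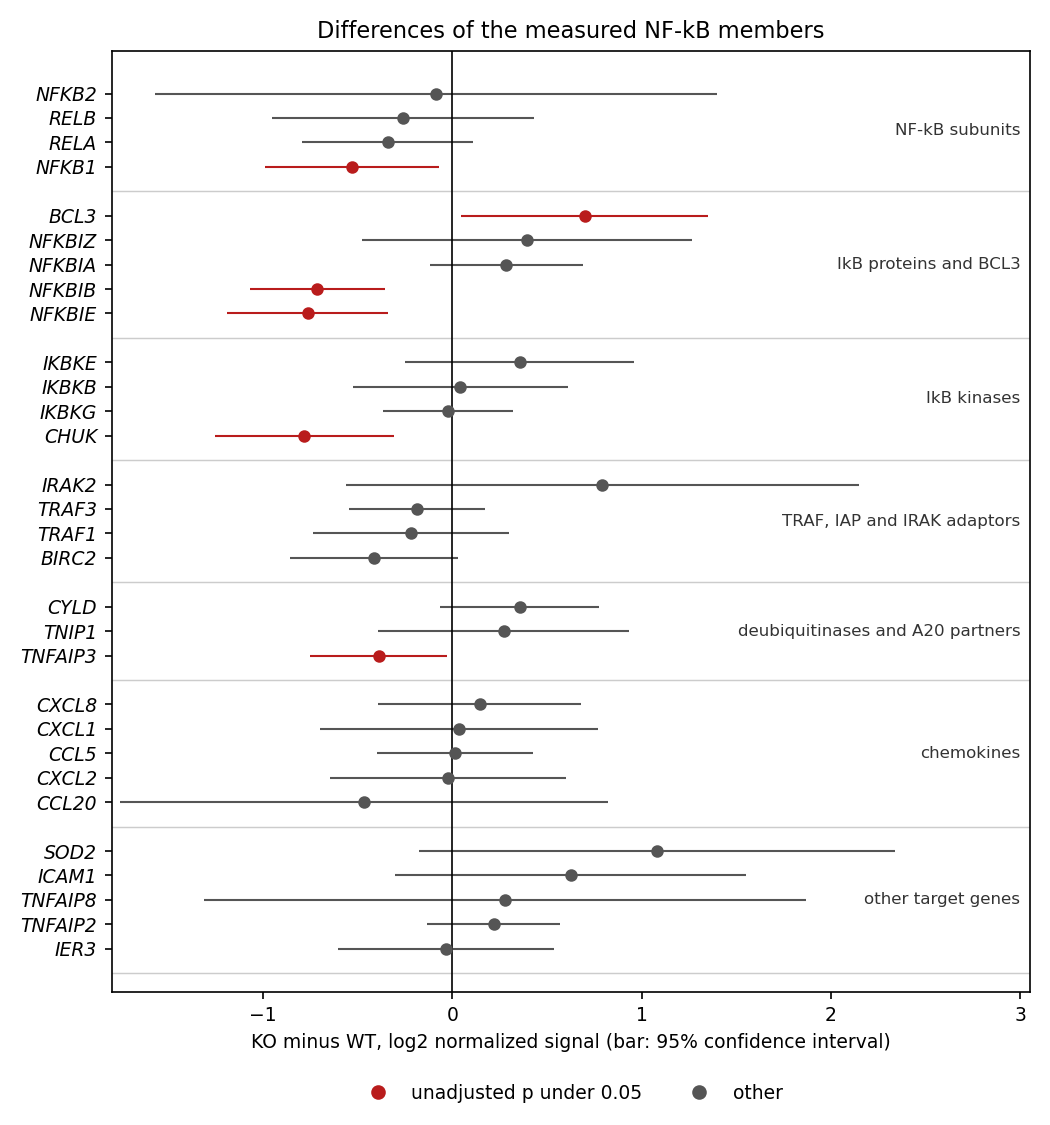
Difference between KO and WT (log2 normalized signal, horizontal axis) for the 30 measured NF-kB members, grouped by role, with the 95% confidence interval of limma's moderated test as a bar. The 6 members with an unadjusted p under 0.05 are drawn in red, and the widest intervals belong to NFKB2, TNFAIP8, IRAK2, CCL20 and SOD2.

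All 4 measured subunit genes had negative differences, and NFKB1 was the one with an unadjusted p under 0.05. NFKB1, which encodes p105, the precursor of p50, had 10.38 and 10.20 in KO against 10.66 and 10.97 in WT, so both KO arrays were below both WT arrays. Its difference was -0.53 ± 0.17, or 1.445-fold lower (unadjusted p = 0.0323, limma adjusted p = 0.211). With arrays scaled to equal medians the NFKB1 groups overlapped and the difference was -0.33 (unadjusted p = 0.310). Its unadjusted p was also above 0.05 without KO replicate 2 (0.0604), without WT replicate 1 (0.0533) and without WT replicate 2 (0.197, with a difference of -0.37). RELA, the gene of the main activating subunit p65, had 7.55 and 7.78 in KO against 7.87 and 8.14 in WT. The RELA groups did not overlap, and the difference was -0.34 ± 0.17 (limma adjusted p = 0.338), with -0.06 when arrays were scaled to equal medians. RELB, the subunit of the alternative pathway, had 6.48 and 6.98 in KO against 6.78 and 7.21 in WT, with overlapping groups and a difference of -0.26 ± 0.25 (limma adjusted p = 0.618). The RELB difference ran from -0.51 without KO replicate 2 to -0.01 without KO replicate 1, and was -0.06 with arrays scaled to equal medians.

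NFKB2, which encodes the p100 precursor of p52, differed more between the KO arrays than between the groups. It had 7.07 and 8.58 in KO replicates 1 and 2 against 7.78 and 8.05 in WT, so that the WT values lay inside the KO range. A second detected probe gave the same order, with 7.27 and 8.39 in KO against 7.71 and 8.10 in WT. The difference was -0.09 ± 0.54 (limma adjusted p = 0.951). It was 0.67 without KO replicate 1 (limma adjusted p = 0.044), -0.84 without KO replicate 2, and 0.17 with arrays scaled to equal medians. REL, the gene of c-Rel, was not measured: its 2 probes gave signals of 131.7 to 151.7, and 1 of them was detected on 1 array, KO replicate 2.

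NFKB1 and several of its neighbours in the pathway carry NF-kB sites in their own promoters, so the RefSeq promoters (build GRCh38.p14, 250 bases before to 50 after the start site) were searched on both strands for the NF-kB consensus, a 10-base motif that begins with GGG and ends with CC. It was present in 5.91% of 35116 promoters, and 8.94% of the 9105 tested genes with a promoter in the table had at least 1 such promoter. Of the 25 measured members with a promoter there, 13 had the motif, or 52%. The members were listed as NF-kB genes, so this share is a description of the list. The 13 genes with the motif had a median difference of -0.02, with 6 higher and 7 lower, and the 12 without it had a median of 0.18, with 7 higher and 5 lower. A match is not evidence of binding, and no match says only that these letters are absent from the window. The NFKB1 promoter at chr4:102501109-102501408 on the + strand is shown because NFKB1 is the subunit gene with the smallest p, with the motif in capitals. NFKB1 has another RefSeq promoter, with no match.
NFKB1: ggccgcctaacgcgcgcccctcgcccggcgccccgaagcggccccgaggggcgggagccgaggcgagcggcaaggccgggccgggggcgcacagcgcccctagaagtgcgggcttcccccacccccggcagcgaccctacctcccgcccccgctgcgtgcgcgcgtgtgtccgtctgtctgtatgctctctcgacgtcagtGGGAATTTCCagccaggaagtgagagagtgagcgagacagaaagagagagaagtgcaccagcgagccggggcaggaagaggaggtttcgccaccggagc

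**Figure D2:**
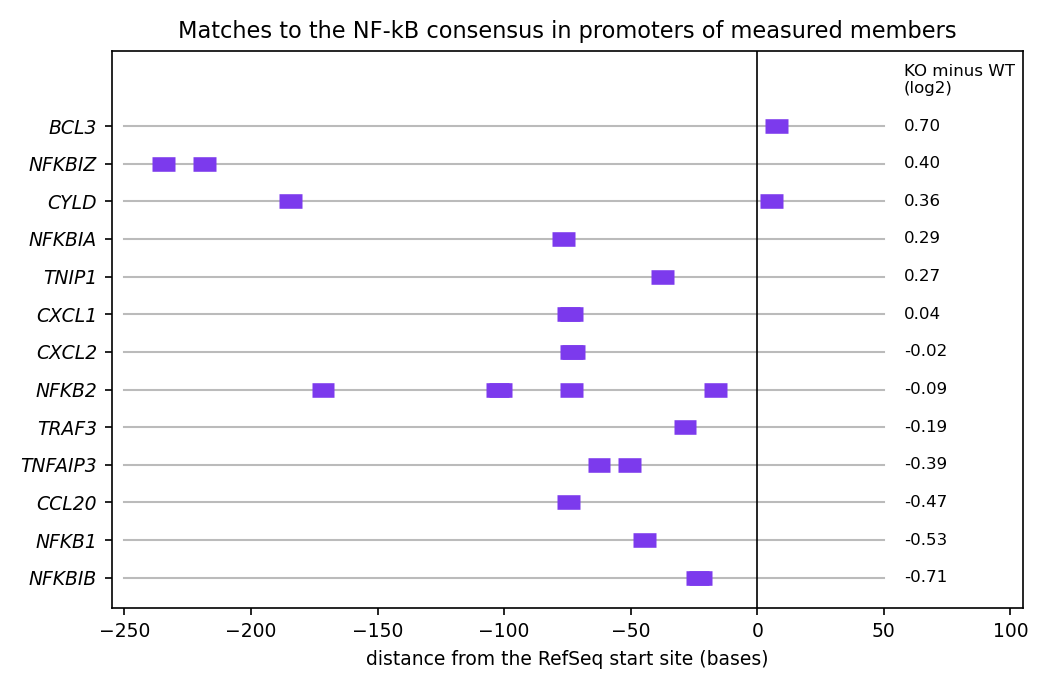
Positions of matches to the NF-kB consensus (violet blocks) relative to the RefSeq start site in bases (horizontal axis) for the 13 measured members with a match, ordered by their difference KO minus WT, which stands at the right. For genes with several start sites each match is placed relative to its own start, and genes with the motif run from -0.71 for NFKBIB to 0.70 for BCL3.

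The genes of IkB proteins differed in both directions. NFKBIB and NFKBIE, which encode the cytoplasmic inhibitors IkB beta and IkB epsilon, had negative differences, and BCL3, which encodes a nuclear IkB protein that binds p50 and p52 dimers, a positive one, each with an unadjusted p under 0.05 and none passing over all genes. NFKBIB had 6.79 and 6.60 in KO against 7.40 and 7.43 in WT. Both KO arrays were below both WT arrays by more than the spread of either group, and the difference was -0.71 ± 0.13, or 1.64-fold lower (unadjusted p = 0.00482, limma adjusted p = 0.132). Its second detected probe differed by -0.65, and with no background correction the difference was -0.44. With arrays scaled to equal medians the NFKBIB difference was -0.46 (unadjusted p = 0.114). NFKBIE had 7.80 and 7.76 in KO against 8.39 and 8.70 in WT, a difference of -0.76 ± 0.16, or 1.70-fold lower (unadjusted p = 0.00717, limma adjusted p = 0.143). With arrays scaled to equal medians it was -0.50 (unadjusted p = 0.159). The NFKBIE groups were apart on all arrays, with the KO arrays closer to each other than the WT arrays. Without KO replicate 1 both genes passed, at limma adjusted p = 0.0154 for NFKBIB and 0.0332 for NFKBIE, in a fit where the lone KO array is assumed to vary like the WT arrays, and where 28.8% of all genes passed.

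BCL3 had 8.47 and 9.08 in KO against 8.06 and 8.10 in WT. Both KO arrays were above both WT arrays, with KO replicate 2 farther off, and the difference was 0.70 ± 0.24, or 1.62-fold (unadjusted p = 0.0408, limma adjusted p = 0.230). It was 1.003 without KO replicate 1 (limma adjusted p = 0.0103) and 0.40 without KO replicate 2. NFKBIA, the gene of IkB alpha and the classical feedback inhibitor of the pathway, had 11.63 and 11.55 in KO against 11.17 and 11.44 in WT. Its groups did not overlap, by a gap smaller than the distance between the WT arrays, and the difference was 0.29 ± 0.15 (95% confidence interval -0.12 to 0.69; limma adjusted p = 0.365). NFKBIZ, which encodes the nuclear protein IkB zeta, had 9.30 and 9.96 in KO against 8.96 and 9.51 in WT, with overlapping groups and a difference of 0.40 ± 0.32 (limma adjusted p = 0.550). It ran from 0.06 without KO replicate 2 to 0.73 without KO replicate 1.

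The promoters of NFKBIA, NFKBIB and BCL3 are set beside each other because all 3 hold the motif while the differences of the genes were 0.29, -0.71 and 0.70. They lie at chr14:35404700-35404999 on the - strand, chr19:38899719-38900018 on the + strand and chr19:44748458-44748757 on the + strand. Capitals mark the matches, which begin at -81 from the start site in NFKBIA, at -28 in NFKBIB and at 3 in BCL3. In NFKBIB matches on both strands overlap. NFKBIB has another RefSeq promoter, with no match.
NFKBIA: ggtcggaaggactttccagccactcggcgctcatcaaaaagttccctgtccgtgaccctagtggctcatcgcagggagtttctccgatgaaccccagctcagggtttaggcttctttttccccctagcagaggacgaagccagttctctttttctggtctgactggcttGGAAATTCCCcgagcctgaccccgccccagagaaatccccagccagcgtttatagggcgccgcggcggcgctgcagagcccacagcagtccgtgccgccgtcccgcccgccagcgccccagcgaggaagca
NFKBIB: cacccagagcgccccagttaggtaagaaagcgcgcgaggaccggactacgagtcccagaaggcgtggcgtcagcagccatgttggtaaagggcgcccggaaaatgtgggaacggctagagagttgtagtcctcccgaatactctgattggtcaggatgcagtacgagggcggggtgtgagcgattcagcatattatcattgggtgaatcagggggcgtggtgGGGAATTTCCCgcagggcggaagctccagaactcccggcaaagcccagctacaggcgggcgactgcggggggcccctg
BCL3: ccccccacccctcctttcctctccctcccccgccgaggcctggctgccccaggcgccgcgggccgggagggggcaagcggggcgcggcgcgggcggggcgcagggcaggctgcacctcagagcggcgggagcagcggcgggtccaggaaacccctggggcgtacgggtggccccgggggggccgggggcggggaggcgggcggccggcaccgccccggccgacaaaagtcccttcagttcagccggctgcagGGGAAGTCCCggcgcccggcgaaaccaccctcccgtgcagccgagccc

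**Figure D3:**
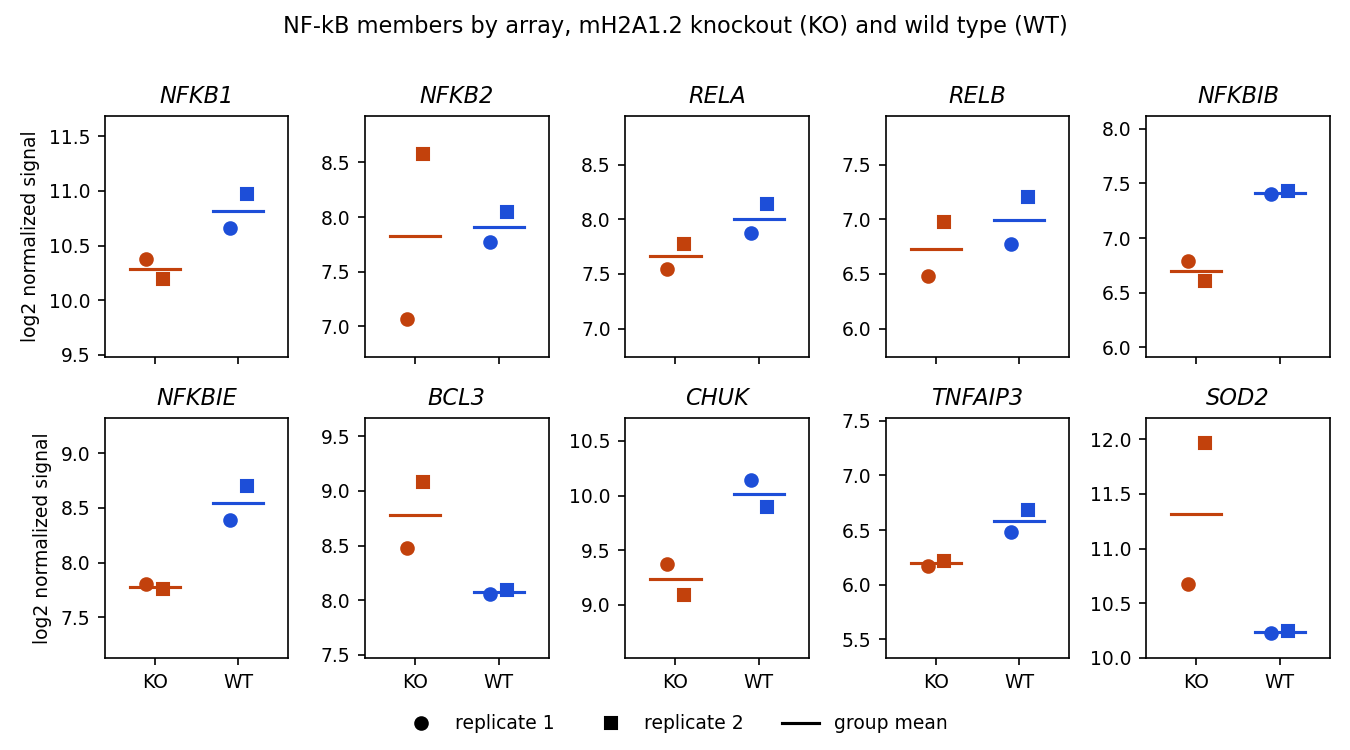
Log2 normalized signal (vertical axis, each panel spanning the same range of log2 units) on each array for the 4 measured subunits and the 6 other members with an unadjusted p under 0.05 or a difference of at least 1, KO at the left and WT at the right of each panel. Circles are replicate 1, squares replicate 2 and lines group means. NFKBIB, NFKBIE, CHUK and TNFAIP3 show both KO arrays below both WT arrays, whereas NFKB2 and SOD2 show KO arrays far apart.

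Of the IkB kinase genes, CHUK alone had an unadjusted p under 0.05. CHUK, which encodes the catalytic subunit IKK alpha, had 9.38 and 9.09 in KO against 10.14 and 9.89 in WT. The KO arrays were below the WT arrays by more than the spread of either group, and the difference was -0.78 ± 0.17, or 1.72-fold lower (unadjusted p = 0.00966, limma adjusted p = 0.152). It was the most negative difference of the 30 members. Without KO replicate 1 CHUK passed, at a limma adjusted p of 0.0184, with a difference of -0.93. IKBKB, the gene of the other catalytic subunit IKK beta, had 8.09 and 8.02 in KO against 7.76 and 8.26 in WT, so that the KO values lay between the WT values. Its difference was 0.04 ± 0.21 (95% confidence interval -0.53 to 0.61). IKBKG, the scaffold subunit NEMO, had 8.90 and 8.98 in KO against 8.89 and 9.04 in WT, a difference of -0.02 ± 0.13, and since a nearly identical copy of this gene exists its signal is uncertain. It was 0.19 with arrays scaled to equal medians. IKBKE, a related kinase that also acts in interferon signalling, had 7.51 and 7.84 in KO against 7.10 and 7.55 in WT, with overlapping groups and a difference of 0.35 ± 0.22 (limma adjusted p = 0.443).

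Of the 4 measured adaptors between receptors and kinases, 3 had negative differences and IRAK2 a positive one, none with an unadjusted p under 0.05. BIRC2, the gene of cIAP1, a ubiquitin ligase of the receptor complex, had 10.72 and 10.43 in KO against 11.08 and 10.90 in WT, with no overlap. Its difference was -0.41 ± 0.16 (limma adjusted p = 0.266), and -0.56 without KO replicate 1 (limma adjusted p = 0.0496). The second detected BIRC2 probe differed by -0.39, with overlapping groups. With arrays scaled to equal medians the groups of the brightest BIRC2 probe overlapped too, with a difference of -0.22. TRAF3, which holds back the alternative pathway, had 6.43 and 6.25 in KO against 6.49 and 6.56 in WT, a difference of -0.19 ± 0.13 with groups apart by less than the spread of the KO arrays. TRAF1, an adaptor that NF-kB itself induces, had 6.14 and 6.27 in KO against 6.21 and 6.63 in WT, and its groups overlapped. IRAK2, a kinase-like adaptor of interleukin 1 and Toll-like receptors, had 8.62 and 9.92 in KO against 8.23 and 8.73 in WT. Its difference was 0.79 ± 0.50 (limma adjusted p = 0.444), and the 2 KO arrays gave it very unevenly, with 0.14 without KO replicate 2 and 1.445 without KO replicate 1 (limma adjusted p = 0.0151). TRAF2 and BIRC3 had no probe named in the annotation used here.

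Of the 3 genes whose products end the signal by removing or editing ubiquitin chains or assist in it, none passed over all genes, and TNFAIP3 alone had an unadjusted p under 0.05. TNFAIP3 encodes A20, a feedback inhibitor, and had 6.17 and 6.22 in KO against 6.49 and 6.69 in WT. The groups did not overlap, and the difference was -0.39 ± 0.13, or 1.31-fold lower (unadjusted p = 0.0405, limma adjusted p = 0.229). This probe was dim, with signals of 169.9 to 225.3, and with an offset of 50 in the background step its difference was -0.28. With arrays scaled to equal medians the TNFAIP3 difference was -0.29 (unadjusted p = 0.249). CYLD, a deubiquitinase and tumour suppressor, had 6.52 and 6.72 in KO against 6.16 and 6.38 in WT, with no overlap and a difference of 0.36 ± 0.15 (limma adjusted p = 0.295). TNIP1, which encodes a partner of A20, had 10.32 and 10.78 in KO against 10.08 and 10.49 in WT, with overlapping groups and a difference of 0.27 ± 0.24 (limma adjusted p = 0.590). It ran from 0.04 without KO replicate 2 to 0.50 without KO replicate 1. The TNFAIP3 promoter at chr6:137867009-137867308 on the + strand, shown because the gene is a known NF-kB target with an unadjusted p under 0.05, has matches 2 bases apart, marked in capitals.
TNFAIP3: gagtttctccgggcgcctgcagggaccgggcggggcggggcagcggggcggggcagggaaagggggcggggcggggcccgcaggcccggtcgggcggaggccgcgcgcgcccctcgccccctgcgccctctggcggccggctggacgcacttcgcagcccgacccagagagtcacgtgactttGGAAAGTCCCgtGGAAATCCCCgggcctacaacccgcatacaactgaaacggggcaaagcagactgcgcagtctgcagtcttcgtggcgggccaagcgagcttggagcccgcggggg

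The chemokine genes, the best known outputs of the pathway, overlapped between KO and WT for all 5 measured. CXCL8, the gene of interleukin 8, a neutrophil attractant, had 12.52 and 12.75 in KO against 12.28 and 12.69 in WT. Its difference was 0.15 ± 0.20 (95% confidence interval -0.39 to 0.68; limma adjusted p = 0.730), and its dimmer probe differed by 0.42, with 11.76 and 11.69 in KO against 11.27 and 11.34 in WT and no overlap. The mean of both probes differed by 0.28. CXCL1, which acts on the same receptor as CXCL8 and CXCL2, had 9.60 and 9.23 in KO against 9.08 and 9.68 in WT, a difference of 0.04 ± 0.27, with the KO values inside the WT range. CXCL2 had 6.96 and 7.53 in KO against 7.22 and 7.31 in WT, a difference of -0.02 ± 0.23, with the WT values inside the KO range. With arrays scaled to equal medians it was 0.24.

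CXCL1, CXCL2 and CXCL3 are closely related in sequence, and which of them each probe reads was not checked. The sites of CXCL1 and CXCL2 are shown with their flanks, at chr4:73869306-73869332 on the + strand and chr4:74099255-74099281 on the - strand, because the genes share the same motif (capitals) at nearly the same distance from their starts and both had differences close to 0.
CXCL1: ggaactccGGGAATTTCCCtggcccgg
CXCL2: ggagctccGGGAATTTCCCtggcccgg

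CCL20, a chemokine for lymphocytes and dendritic cells, was set apart by 1 array. It had 6.25 and 7.57 in KO replicates 1 and 2 against 7.39 and 7.37 in WT, and the difference was -0.47 ± 0.47 (limma adjusted p = 0.635). Without KO replicate 2 the difference was -1.13 (limma adjusted p = 0.0425), the 1 member that passed in that fit, in which 2.57% of all genes passed, and without KO replicate 1 it was 0.20. CCL5, which attracts T cells, had 6.55 and 6.83 in KO against 6.70 and 6.64 in WT, a difference of 0.01 ± 0.15. CXCL3 and CXCL5 were not detected on any array, with signals of 126.1 to 149.6. The cytokine genes TNF and LTB were not detected on any array either, with signals of 115.2 to 141.8.

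Among the remaining targets SOD2 had the largest difference of the 30 members. SOD2, the mitochondrial superoxide dismutase, had 10.68 and 11.96 in KO replicates 1 and 2 against 10.23 and 10.25 in WT. Both KO arrays were above WT, replicate 2 by much more, and the difference was 1.08 ± 0.46, or 2.12-fold (95% confidence interval of the log2 difference -0.18 to 2.34; limma adjusted p = 0.291). A second detected probe differed by 1.04, with 8.43 and 9.84 in KO against 8.08 and 8.12 in WT. The difference was 1.73 without KO replicate 1 (limma adjusted p = 0.00654) and 0.44 without KO replicate 2. SOD2 was the only member that differed at least 2-fold, against 4.95% of all genes. ICAM1, an adhesion molecule for leukocytes, had 6.72 and 7.53 in KO against 6.28 and 6.73 in WT, with groups that overlap narrowly and a difference of 0.63 ± 0.34 (limma adjusted p = 0.384). It was 1.03 without KO replicate 1 (limma adjusted p = 0.0283) and 0.22 without KO replicate 2.

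The other targets gave small or uneven differences. TNFAIP8, a regulator of cell death, had 8.15 and 6.59 in KO replicates 1 and 2 against 7.37 and 6.82 in WT, the reverse of the order of the KO arrays in SOD2. Its difference was 0.28 ± 0.58, with -0.50 without KO replicate 1 and 1.06 without KO replicate 2. TNFAIP2 had 7.09 and 6.995 in KO against 6.75 and 6.90 in WT, with no overlap and a difference of 0.22 ± 0.13 (limma adjusted p = 0.419). IER3, an early response gene that protects cells from death, had 13.34 and 13.61 in KO against 13.30 and 13.73 in WT, and its difference was -0.03 ± 0.21, or 0.24 with arrays scaled to equal medians. PTGS2, the inducible cyclooxygenase, was not measured, with 1 of its probes detected on KO replicate 2 alone, at signals of 128.8 to 168 over both probes.

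Replicate arrays differed for many members. Replicate number goes with position on the chip: by the column headers replicate 1 was at A (WT) and B (KO), and replicate 2 at C (WT) and D (KO). The KO arrays differed more than 2-fold for 5 of 30 members, against 5.64% of all genes: NFKB2, IRAK2, CCL20, TNFAIP8 and SOD2, and 4 of these were higher on replicate 2. The WT arrays differed more than 2-fold for none of the 30. WT replicate 2 was above WT replicate 1 for 25 members, against 56.3% of all genes, with a median gap of 0.27 against 0.03 over all genes. KO replicate 2 was above KO replicate 1 for 19 members, against 53.1% of all genes, with a median gap of 0.21 against 0.02. For 17 members replicate 2 was the higher array in both groups, against 36.3% of all genes, and for 3 it was the lower in both, against 27%. Against the WT mean the median of the members was -0.08 for KO replicate 1 and 0.13 for KO replicate 2. The 2 KO arrays lay on the same side of the WT mean, which both differences share, for 22 of the 30 members and for 7878 of the 11311 genes.

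**Figure D4:**
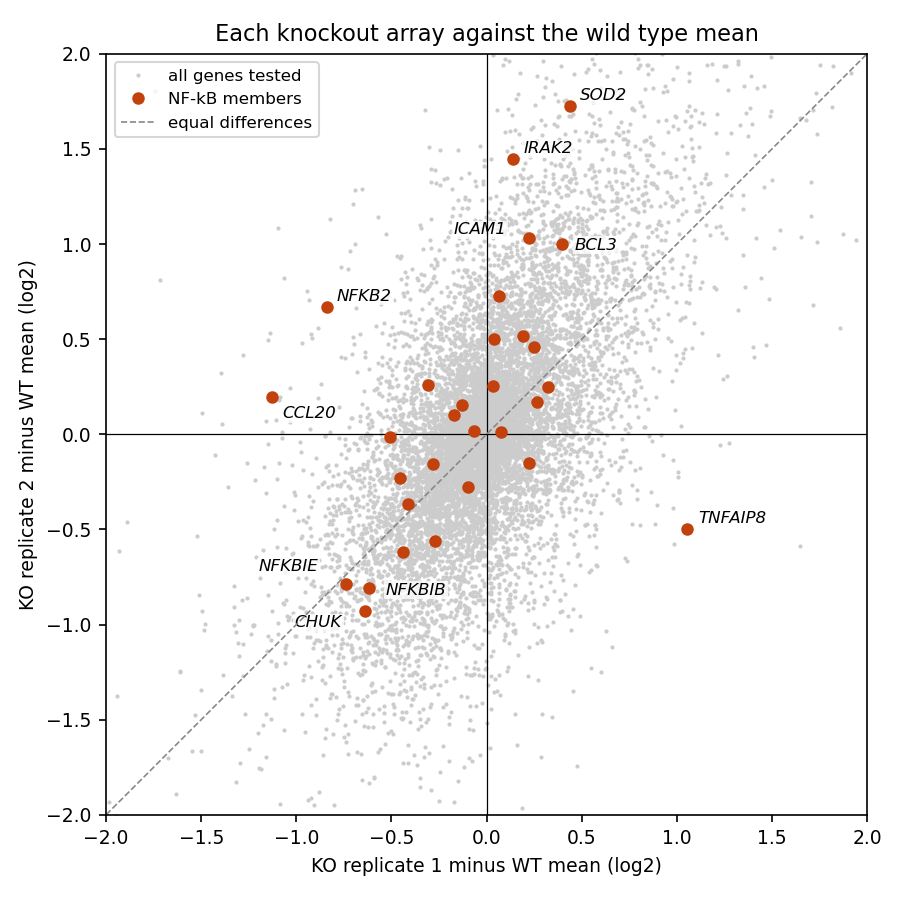
Log2 difference of KO replicate 1 (horizontal axis) and of KO replicate 2 (vertical axis) from the WT mean for the 30 members (orange) and all genes tested (grey), with 131 genes outside the range drawn. Both axes share the WT mean, which tilts the cloud towards the dashed line of equal differences. NFKB2, CCL20 and TNFAIP8 lie on opposite sides of the WT mean on the KO arrays, and SOD2, IRAK2, ICAM1 and BCL3 lie farther above it on replicate 2.

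Other genes of the pathway, taken from lists of symbols, did not pass over all genes either. Of 13 measured receptors and adaptors upstream of the IkB kinases, 1 was higher and 2 were lower at an unadjusted p under 0.05, or 23.1% in all against 20.1% of all genes, with a median difference of 0.10. TNFRSF1B, a tumour necrosis factor receptor, had 7.49 and 8.77 in KO against 6.19 and 6.29 in WT, a difference of 1.89 ± 0.46 (limma adjusted p = 0.162). The TNFRSF1B difference was 2.53 without KO replicate 1 and 1.25 without KO replicate 2. IRAK1, a kinase of the interleukin 1 receptor, had 10.46 and 10.28 in KO against 11.02 and 11.34 in WT, a difference of -0.81 ± 0.17 (limma adjusted p = 0.146), and passed without KO replicate 1 (limma adjusted p = 0.0249). The endotoxin receptor gene TLR4 differed by -0.48 ± 0.12 and the receptor adaptor gene TRADD by 0.60 ± 0.23, with TRADD at 0.88 without KO replicate 1. With arrays scaled to equal medians IRAK1 was at -0.61 and TLR4 at -0.36 (limma unadjusted p = 0.0868 and 0.161). TNFRSF1B and TRADD were then at 2.055 and 0.87.

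Of 21 measured kinases and ubiquitin enzymes upstream, 2 were higher and 3 lower at an unadjusted p under 0.05, or 23.8% in all against 20.1% of all genes, with a median of -0.04. RBCK1, which encodes the HOIL-1 subunit of the linear ubiquitin ligase, had 9.25 and 9.65 in KO against 8.35 and 8.79 in WT, a difference of 0.88 ± 0.23. AZI2, an adaptor of the IkB kinase relatives, differed by 0.78 ± 0.17, while MAP3K7, the kinase TAK1, differed by -0.41 ± 0.13 and MAP3K14, the NF-kB inducing kinase of the alternative pathway, by -0.45 ± 0.15. Their limma adjusted p lay between 0.148 and 0.230, and without KO replicate 1 AZI2, RBCK1 and MAP3K14 passed, at 0.0115, 0.0246 and 0.0416.

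Among 31 measured further target genes 6 were higher and 1 was lower at an unadjusted p under 0.05, or 22.6% in all against 20.1% of all genes, with a median of 0.19. KO and WT did not overlap for 14 that were higher, or 45.2%, and for 4 that were lower, or 12.9%, against 25.9% and 28.2% of all genes. TNFSF10, the death ligand TRAIL, had 8.05 and 7.89 in KO against 6.31 and 6.32 in WT. The TNFSF10 difference was 1.66 ± 0.12 (limma adjusted p = 0.122), or 1.33 with an offset of 50. C3, the central complement component, had 7.58 and 8.24 in KO against 6.13 and 6.06 in WT. The C3 difference was 1.82 ± 0.26 (limma adjusted p = 0.126), or 1.43 with an offset of 50. C3 was dim in WT, at signals of 162.1 and 156.2, and fell out when a detection p of 0.01 was asked on every array. EFNA1, a ligand of Eph receptors, had 8.04 and 8.97 in KO against 7.06 and 7.02 in WT. The EFNA1 difference was 1.47 ± 0.34 (limma adjusted p = 0.159), or 0.94 for the mean of its 2 detected probes. These 3 passed without either KO array, at limma adjusted p of 0.00628 to 0.0427, and not without a WT array, at 0.793 and 0.712. GADD45B, a stress response gene, had 8.69 and 8.46 in KO against 9.60 and 9.34 in WT, a difference of -0.89 ± 0.16 (limma adjusted p = 0.132), and passed without KO replicate 1 (limma adjusted p = 0.0159). Many of these genes also answer to other factors, and the list was made with earlier results of these data known, so its counts are a description.

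**Figure D5:**
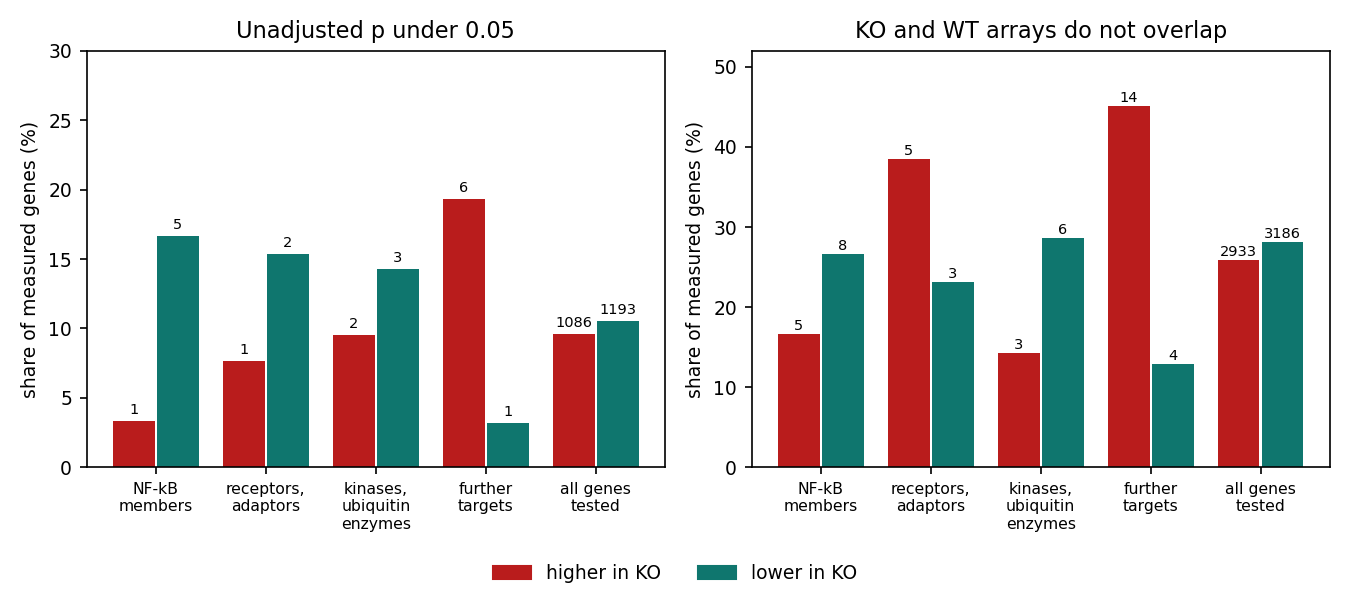
Share of measured genes (%, vertical axis) that were higher (red) or lower (green) in KO for the NF-kB members, the 3 lists of other pathway genes and all genes tested, by an unadjusted p under 0.05 (left panel) and by KO and WT arrays that do not overlap (right panel). Numbers on the bars are gene counts, and the further target genes have the highest share of higher genes, 14 of 31 by the second measure.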

How the data were processed

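RNA of 4 samples, 2 KO and 2 WT, was measured on 4 arrays of 1 chip and assigned by the labels' descriptions. Per the file headers, the deposited table holds, for each array, an intensity per probe (average signal, 47230 probes), linear and not normalized, and a detection p-value for each. The notes of the submitters on processing list GenomeStudio. A deposited table of the authors holds log2 values of 47164 probes, with column medians of 6.46 and 6.45 for KO and 6.46 and 6.45 for WT. Over 14052 probes its deviations from the probe mean correlated with those of the same array's signals at r = 0.974 to 0.987 and at most 0.53 with another array. Genes are not centred in it, and how it was normalized remains unknown here.

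Signals were background corrected by normexp from detection p-values (offset 16), quantile normalized and log2 transformed (R 4.3.3, limma 3.58.1). The 19752 probes with a detection p under 0.05 on 2 or more arrays entered the comparison. Of these 14977 had 1 gene symbol in the platform annotation of GEO (30074 probes with 1 symbol, 8 with several, 17148 unnamed here), and symbols were updated by gene number (GRCh38.p14). The brightest kept probe stood for each of 11311 genes. KO was compared with WT by limma's moderated test, two-sided, Benjamini-Hochberg adjusted over 11311 genes, without a block. An exact permutation test of 2 against 2 arrays cannot go below p = 0.333. The steps were tested on simulated data. Members, lists and roles were chosen with earlier results of these data known. The subunits, members with an unadjusted p under 0.05 and members with a difference of at least 1 were to be given in full, and up to 4 genes of each other list by smallest p. Promoter sequences are from RefSeq (GRCh38.p14), which held 33 of the 38 genes. Alternatives left out the background correction, the detection filter or each array in turn, set the offset to 50, scaled arrays to equal medians, asked for a detection p of 0.01 on every array, averaged the probes of a gene, used the deposited log2 values, added an intensity trend, or took the replicate number as a block.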

Additional observations from a re-analysis of the deposited data

How the results depend on the processing

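No member passed over all genes with all 4 arrays under any of the 9 alternatives that kept them. Leaving out 1 array, in fits where the lone array of a group is assumed to vary like the other group, gave 0 to 3262 genes over all, 0 to 5 members higher and 0 to 4 lower at a limma adjusted p under 0.05. At an unadjusted p under 0.05 it gave 348 to 2400 genes higher and 307 to 2247 lower over all, 0 to 7 members higher and 1 to 7 lower, and 2 to 21 other pathway genes higher and 1 to 11 lower. Groups did not overlap for 5 to 15 members higher and 8 to 14 lower, and the median of the members ran from -0.15 to 0.13. Scaling to equal medians, which moved the median of all genes to 0.12, gave 209 genes lower over all, 2 members higher and 1 lower, 14 other pathway genes higher and 1 lower, 4 members lower with no overlap, and a median of the members of 0.24. It moved the share of higher genes among those with an unadjusted p under 0.05 to 86%, from 47.7%. Members higher at an unadjusted p under 0.05 numbered 0 with no detection filter, 2 on the authors' values and 2 with an intensity trend. In either direction these settings gave 16.7%, 20% and 23.3% of members, against 14.2%, 20.8% and 20.7% of all genes. Same-numbered arrays of the 2 groups also lay at neighbouring positions of the chip, so replicate number and position cannot be told apart. They deviated together at r = 0.444 over all genes. With the replicate block 6 members and 17 other pathway genes were higher at an unadjusted p under 0.05, against 1 and 9 without it. In either direction that was 40% of members against 25.6% of all genes, and no member passed over all genes.

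Of 42 named genes 32 kept their direction under all alternatives in which they were measured. Scaling to equal medians reversed NFKB2 (0.17), IKBKG (0.19), CXCL2 (0.24) and IER3 (0.24), and the authors' values reversed CXCL2 (0.028), CCL5 (-0.017) and IER3 (0.021). With 1 array left out the difference ran from -0.84 to 0.67 for NFKB2, -0.21 to 0.29 for IKBKB, -0.10 to 0.049 for IKBKG, -0.059 to 0.35 for CXCL8, -0.26 to 0.34 for CXCL1, -0.31 to 0.26 for CXCL2, -1.13 to 0.20 for CCL20, -0.13 to 0.15 for CCL5, -0.50 to 1.06 for TNFAIP8 and -0.25 to 0.18 for IER3. Other members kept their sign but moved over 1.5 times, among them NFKBIA (0.15 to 0.42), IKBKE (0.13 to 0.58), TRAF1 (-0.43 to -0.007) and TRAF3 (-0.28 to -0.10). Except that leaving out an array leaves fewer samples, the cause was not tested. With 2 arrays a group, and dim probes such as TNFAIP3, TRAF1 and CYLD near background, differences near the median standard error of the members, 0.20, are not detectable.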
